A study of Mus musculus with 2 samples.

Results

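The regions described here are EP300 peaks that were listed in only 1 of 2 replicate peak lists and that sat in a gap of the H3K4me1 mark. They were chosen by the deposited peak coordinates alone. A peak of one list qualified when it overlapped no peak of the other list by even 1 bp, when its midpoint lay outside every H3K4me1 region, and when the nearest region to the left and the nearest to the right both lay at most 1000 bp from that midpoint. This gave 910 of the 8451 peaks of replicate 1 and 1092 of the 10351 peaks of replicate 2, or 2002 of 18802 peaks in all. Chromatin immunoprecipitation with sequencing (ChIP-seq) had been done with an anti-p300 and an anti-H3K4me1 antibody in melan-a, an immortalized mouse melanocyte line of strain C57BL/6 Ink4a -/-. Both antibodies were used on this same line with no treatment given, so there is no second genotype, treatment or time to compare. Each antibody is 1 sample that stands for 2 replicates, and no label says that the replicates were separate cultures. There was thus no comparison over samples to test, and every value below describes these peak lists.

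EP300 (p300) is a histone acetyltransferase that transcription factors recruit to enhancers and promoters, where it acetylates histone H3 at lysine 27 among other residues. H3K4me1, histone H3 monomethylated at lysine 4, is laid down on the nucleosomes around enhancers. At an active enhancer the DNA bound by factors is often depleted of nucleosomes, so the mark tends to lie on both sides of the bound site with a dip between. A coactivator peak in such a dip is therefore the arrangement by which enhancers are commonly recognised.

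Replicate 1 had 31439027 filtered ChIP tags and 20010848 filtered control tags, and replicate 2 had 32355042 and 24669749. The peak caller gave each EP300 peak a number of tags, a significance equal to 10 times the -log10 of a Poisson p-value, with 50 as the entry level, and a fold enrichment over background; these values are the authors'. There were 59923 H3K4me1 regions, of median width 500 bp, with edges on a 50 bp grid and an unknown depth. A peak missing from a list fell short of that list's threshold, which is not the same as an absence of EP300.

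Single-list flanked peaks were a minority among single-list peaks and a minority among flanked peaks. In replicate 1 they made up 18.8% (interval 17.8% to 20.0%) of 4829 single-list peaks, and in replicate 2 16.2% (interval 15.3% to 17.1%) of 6748. All intervals here are 95% intervals that cover counting error over peaks only. Over every peak of the list, flanked or not, 57.1% of replicate 1 and 65.2% of replicate 2 were single-list. Over every peak, single-list or not, 36.2% of replicate 1 and 30.9% of replicate 2 were flanked. These 4 background shares come from the criteria that chose the peaks, so no more is read from them.

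The remaining single-list peaks, 3919 in replicate 1 and 5656 in replicate 2, are called unflanked. Most of them, 2680 and 3763, had no H3K4me1 region within 1000 bp of the midpoint, while 687 and 881 had a region on a single side and 552 and 1012 had their midpoint inside a region. The flanked peaks present in both lists numbered 2149 in replicate 1 and 2102 in replicate 2. Of all flanked peaks, the single-list ones were 29.7% (interval 28.1% to 31.4%) in replicate 1 and 34.2% (interval 32.5% to 35.9%) in replicate 2. The single-list share was 49.6% and 56.6% for peaks with a region on 1 side, 50.5% and 63.2% for those inside a region, and 91.9% and 94.1% for those with none.

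In tags, the single-list flanked peaks lay between the other classes. In replicate 1 they had a median of 44 tags (interval 43 to 45), against 68 (interval 66 to 70) for flanked peaks in both lists and 31 (interval 30 to 31) for unflanked single-list peaks. In replicate 2 the medians were 48 (interval 47 to 49), 75 (interval 73 to 77) and 32 (interval 32 to 33) in the same order of classes. Single values overlapped widely: the lowest and highest were 21 and 120 tags among the single-list flanked peaks of replicate 1, and 22 and 168 among those of replicate 2.

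Length followed the same order. The single-list flanked peaks had a median length of 905.5 bp in replicate 1, against 1069 bp for flanked peaks in both lists and 679 bp for unflanked single-list peaks. In replicate 2 the medians were 938 bp, against 1137.5 bp and 707 bp. Over both lists together, single-list flanked peaks were 0.840 times as long as flanked peaks in both lists and 1.33 times as long as unflanked single-list peaks, with 0.648 and 1.44 times the tags. Longer peaks hold more tags, so tags were also divided by length. For replicates 1 and 2 the medians were then 49.2 and 50.6 tags per kb, against 62.6 and 64.4 for flanked peaks in both lists and 45.6 and 46.5 for unflanked single-list peaks. Part of the difference in tags therefore went with length. Length was not corrected for in the overlap of the lists, and a longer peak has more room to overlap another.

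**Figure D1:**
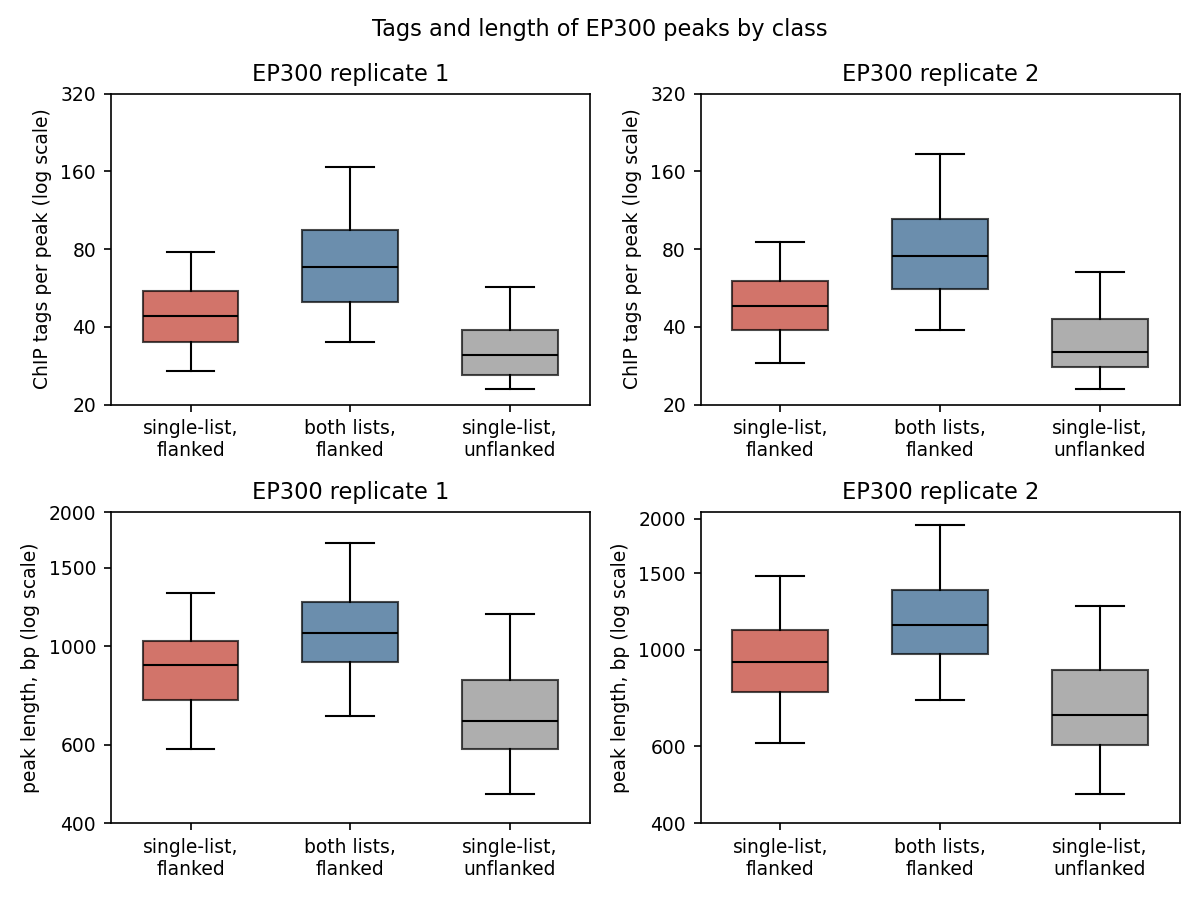
ChIP tags per peak (upper panels, log scale) and peak length in bp (lower panels, log scale) for single-list flanked peaks, flanked peaks in both lists and unflanked single-list peaks of each EP300 replicate. Boxes span the quartiles with the median as a line, and whiskers reach the 5th and 95th percentiles. The single-list flanked peaks are the middle class in each panel, with medians of 44 and 48 tags.

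Enrichment and significance put the classes in the same order. The peak caller derives both from the same tags, so they are not separate support. Median fold enrichment was 5.79 in replicate 1 and 5.435 in replicate 2, against 7.83 and 7.12 for flanked peaks in both lists and 5.21 and 5.17 for unflanked single-list peaks. The median significance was 75.8 and 75.6, against 143.6 and 142.4, and against 58.9 and 59.7. Within its own list the median single-list flanked peak stood at percentile 52.5 in replicate 1 and 55.6 in replicate 2 (100 being the strongest). That is a middle rank, but a rank within the list does not measure distance from the entry level. The median significance of these peaks, 75.8 and 75.6, was nearer to the entry level than to the medians of flanked peaks in both lists. A significance under 60 was found for 25.4% and 23.6% of the single-list flanked peaks. For flanked peaks in both lists the shares were 7.03% and 7.56%, and for unflanked single-list peaks 53.6% and 50.7%. From 60 to 80 they were 29.7% and 31.7%, against 13.1% and 12.8%, and 31.6% and 31.3%, in the same order of classes. A significance of 100 or more was found for 235 of 910 in replicate 1 and 282 of 1092 in replicate 2. Of these, 3 and 5 reached 300. From 100 to 150 the shares were 16.5% and 17.9%, against 21.5% and 21.3%, and 4.95% and 5.83%, in the same order of classes. From 150 to 300 they were 9.01% and 7.51%, against 28.7% and 29.4%, and 1.20% and 1.91%. From 300 upward they were 0.33% and 0.46%, against 18.8% and 17.4%, and 0.05% and 0.07%.

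In each class of significance under 300, flanked peaks were found in the other list more often than the other 3 kinds of peak. These shares use the calls that chose the peaks and are a description. For a significance under 60, 39.5% (interval 34.6% to 44.6%) of 382 flanked peaks of replicate 1 were found in replicate 2, against 2.49% (interval 1.80% to 3.35%) of 1685 peaks with no H3K4me1 within 1000 bp. In replicate 2 the values were 38.1% (interval 33.4% to 43.0%) of 417 flanked peaks and 1.53% (interval 1.06% to 2.12%) of 2294 peaks with none. Peaks with a region on 1 side were found in 20.4% and 19.5% of cases and peaks inside a region in 26.1% and 15.3%. The intervals of flanked peaks did not reach those of the other 3 kinds in this class in either list. In replicate 1 from 80 to 100, the interval of flanked peaks (52.6% to 62.4%) overlapped that of peaks inside a region (43.2% to 58.5%). From 150 to 300 in replicate 1 the shares were nearly equal. They were 88.3% for flanked peaks, 88.0% with a region on 1 side and 87.3% inside a region. Significance was not fully equal within a class: in that of 60 to 80 the median was 69.04 for flanked peaks and 66.4 for peaks with no H3K4me1 in replicate 1.

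Against peaks with no H3K4me1 within 1000 bp, the difference was wider in the classes from 60 to 100 than under 60, and narrower from 150 upward. For a significance of 60 to 80, 51.0% of flanked peaks and 6.33% of peaks with none were found in the other list in replicate 1, and 43.8% and 4.50% in replicate 2. For 80 to 100 the shares were 57.6% and 16.3% in replicate 1, and 53.8% and 8.33% in replicate 2. For 100 to 150 they were 75.5% and 44.4% in replicate 1, and 69.7% and 32.1% in replicate 2. For 150 to 300 they were 88.3% (interval 85.6% to 90.5%) and 84.2% (interval 72.1% to 92.5%) in replicate 1, with overlapping intervals, and 88.3% (interval 85.7% to 90.6%) and 72.6% (interval 60.9% to 82.4%) in replicate 2. From 300 upward they were 99.3% and 100% in replicate 1, and 98.7% and 96.2% in replicate 2, with 20 and 26 peaks that had none. Against all unflanked peaks together, the flanked share was higher by 31.8, 32.2, 19.0, 13.7, 1.06 and 0.46 percentage points in replicate 1 from the lowest to the highest class, and by 32.7, 30.0, 29.6, 21.4, 10.99 and 0.69 in replicate 2. The single-list flanked peaks are the remainder of these flanked shares: 231, 270, 174, 150, 82 and 3 peaks of replicate 1 from the lowest to the highest class, and 258, 346, 206, 195, 82 and 5 of replicate 2.

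**Figure D2:**
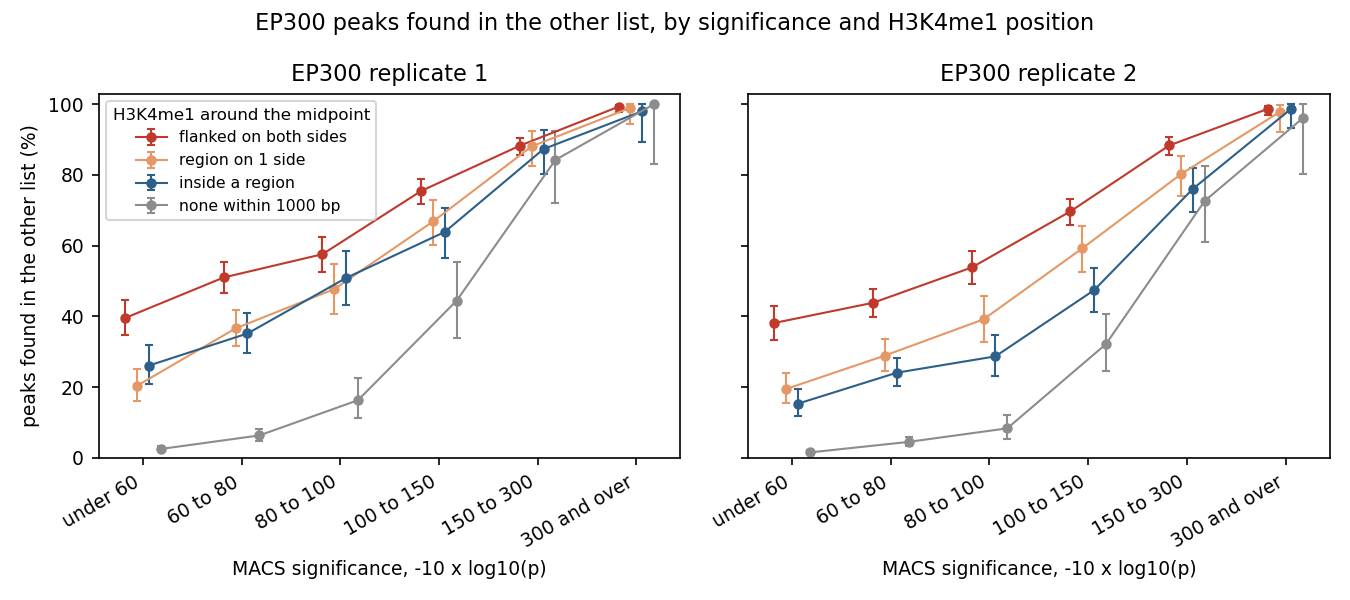
Share of EP300 peaks that overlapped a peak of the other list (y axis, percent) in 6 classes of MACS significance (x axis), by the position of the peak midpoint relative to H3K4me1. Bars are Clopper-Pearson 95% intervals; in the lowest class flanked peaks stand at 39.5% and 38.1%, and peaks with no H3K4me1 within 1000 bp at 2.49% and 1.53%.

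Peak length at equal significance showed where the classes parted. Among peaks with a significance under 60, single-list flanked peaks had a median length of 770 bp in replicate 1 (interval 733 to 807 bp) and 809.5 bp in replicate 2 (interval 780 to 843 bp). Flanked peaks in both lists measured 827 bp (interval 795 to 891 bp) and 934 bp (interval 905 to 987 bp), and unflanked single-list peaks 622 bp (interval 619 to 628 bp) and 639 bp (interval 635 to 644 bp). Fold enrichment in that class was close to equal, at medians of 5.04 and 4.72 for single-list flanked peaks, 5.00 and 4.63 for flanked peaks in both lists, and 5.16 and 4.99 for unflanked ones. From 100 to 150, the lengths were 1024.5 bp (interval 991 to 1062 bp) in replicate 1 and 1063 bp (interval 1025 to 1094 bp) in replicate 2 for single-list flanked peaks. They were 1030 bp (interval 1011 to 1052 bp) and 1105 bp (interval 1075 to 1127 bp) for flanked peaks in both lists, and 999.5 bp (interval 958 to 1043 bp) and 1030.5 bp (interval 1006 to 1050 bp) for unflanked single-list peaks. Restricted to a significance of at least 100, single-list flanked peaks of both lists were 1.02 times as long as unflanked single-list peaks and had 1.07 times their tags. The greater length and tags relative to unflanked single-list peaks were thus seen mainly among the weaker peaks. The make-up of the unflanked class also changed with significance. Under 60, 1643 of 2099 in replicate 1 and 2259 of 2865 in replicate 2 had no H3K4me1 within 1000 bp. From 100 to 150 this held for 50 of 194 and 95 of 330. Length and tags were not split by this within classes, and the cause was not tested.

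The gaps that held single-list flanked peaks were slightly narrower than those around flanked peaks in both lists. Their median width was 600 bp in replicate 1 (interval 550 to 600 bp, quartiles 450 and 800 bp) and 550 bp in replicate 2 (interval 500 to 550 bp, quartiles 400 and 750 bp). Flanked peaks in both lists had a median gap of 650 bp and quartiles of 500 and 850 bp in each list. The difference equals 1 step of the 50 bp grid in replicate 1 and 2 steps in replicate 2. Gaps under 300 bp made up 5.82% (interval 4.39% to 7.55%) and 9.89% (interval 8.18% to 11.8%) of the single-list flanked peaks, against 4.37% (interval 3.55% to 5.33%) and 4.66% (interval 3.80% to 5.65%) of the flanked peaks in both lists. Gaps of 1000 bp or more made up 12.9% and 12.2%, against 17.4% and 17.7%.

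**Figure D3:**
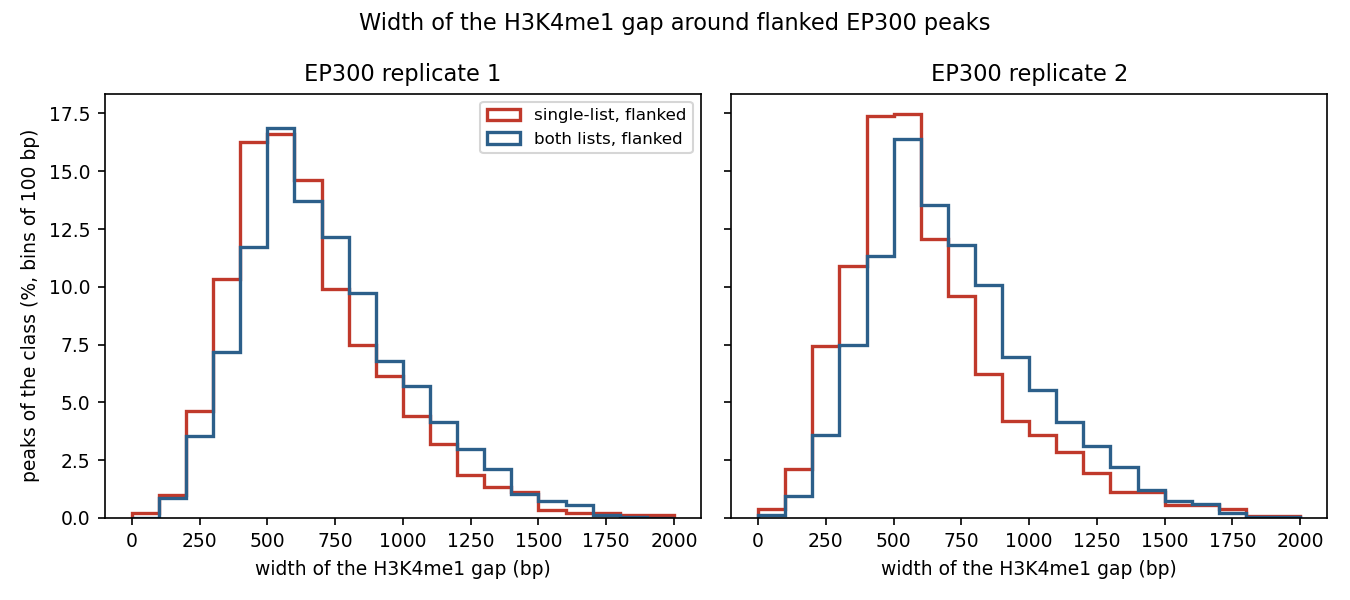
Width of the H3K4me1 gap (x axis, bp) around single-list flanked peaks and flanked peaks in both lists, as percent of each class in bins of 100 bp (y axis), for each EP300 replicate. Median widths are 600 and 550 bp for single-list flanked peaks and 650 bp for flanked peaks in both lists.

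Within classes of significance, the median gap of single-list flanked peaks was equal to or narrower than that of flanked peaks in both lists. With a significance under 60, the median gap was 550 bp for both classes of flanked peaks in both replicates. From 60 to 80 it was 550 bp (interval 550 to 600 bp) against 600 bp (interval 550 to 600 bp) in replicate 1, and 550 bp (interval 500 to 600 bp) against 600 bp (interval 550 to 650 bp) in replicate 2. From 80 to 100 it was 600 bp (interval 550 to 650 bp) against 600 bp (interval 550 to 650 bp) in replicate 1, and 550 bp (interval 500 to 550 bp) against 650 bp (interval 600 to 700 bp) in replicate 2. From 100 to 150 it was 600 bp for both in replicate 1, and 500 bp (interval 450 to 550 bp) against 600 bp (interval 550 to 650 bp) in replicate 2. From 150 to 300 it was 625 bp (interval 550 to 750 bp) against 650 bp (interval 650 to 700 bp) in replicate 1, and 600 bp (interval 500 to 700 bp) against 650 bp (interval 650 to 700 bp) in replicate 2. The intervals overlapped in each of these 5 classes in replicate 1, and were apart or met only at an end from 80 to 150 in replicate 2. The narrowest gap of a single-list flanked peak measured 50 bp in each list, on chromosome 5, 138237534 to 138238400 (mm9; 45 tags), in replicate 1 and on chromosome 15, 97744486 to 97745425 (48 tags), in replicate 2. The widest measured 1950 bp, on chromosome 15, 85483874 to 85484860 (42 tags), in replicate 1, and 1900 bp, on chromosome 8, 74011625 to 74012893 (58 tags), in replicate 2.

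Peaks were mostly longer than the gap that held them. This was so for 80.3% of the single-list flanked peaks of replicate 1 and 86.4% of those of replicate 2, against 88.3% and 90.7% of the flanked peaks in both lists. The peak edges touched both flanking regions in 62.2% (interval 59.0% to 65.4%) and 68.6% (interval 65.7% to 71.3%) of cases, against 72.4% (interval 70.5% to 74.3%) and 77.7% (interval 75.8% to 79.5%). The midpoint lay a median of 91 bp from the middle of the gap in replicate 1 and 96 bp in replicate 2, against 87.5 bp and 92.5 bp. The summit was not used in the choice, but it lay a median of only 70 bp and 74 bp from the midpoint. The nearer flank lay a median of 186.5 bp and 163 bp from the midpoint. A summit in the same gap therefore largely follows from the choice of midpoints. The summit lay in the same gap as the midpoint for 93.8% (interval 92.1% to 95.3%) of the peaks of replicate 1. In replicate 2 this was so for 87.9% (interval 85.8% to 89.8%). For flanked peaks in both lists it did so in 95.3% and 95.6% of cases. The summit fell inside an H3K4me1 region for 5.93% (interval 4.49% to 7.67%) of the single-list flanked peaks in replicate 1 and 11.6% (interval 9.79% to 13.7%) in replicate 2, against 4.33% and 4.09%.

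The H3K4me1 regions beside single-list flanked peaks were narrower and lower in the authors' ranking than those beside flanked peaks in both lists. The mean width of the 2 flanking regions had a median of 675 bp in replicate 1 (interval 650 to 700 bp) and 700 bp in replicate 2 (interval 675 to 725 bp), against 875 bp (interval 850 to 900 bp) and 900 bp (interval 850 to 900 bp). The lower-ranked region of the 2 stood at a median percentile of 53.7 and 52.5 of all H3K4me1 regions, against 64.7 in each list for flanked peaks in both lists. The higher-ranked one stood at 81.8 and 82.1, against 88.8 and 88.9. Both regions were in the upper 50% of the ranking for 53.6% and 53.1% of the single-list flanked peaks, against 65.4% and 65.0%.

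The width of the flanking regions was also compared at equal significance. Under 60 the medians were 625 bp (interval 575 to 700 bp) in replicate 1 and 650 bp (interval 600 to 725 bp) in replicate 2, against 775 bp (interval 675 to 875 bp) and 800 bp (interval 750 to 875 bp). From 60 to 80 they were 650 bp (interval 600 to 700 bp) and 675 bp (interval 650 to 750 bp), against 775 bp in each list (intervals 725 to 825 bp and 675 to 825 bp). From 100 to 150 they were 750 bp (interval 650 to 850 bp) and 725 bp (interval 675 to 775 bp), against 850 bp (interval 800 to 900 bp) and 825 bp (interval 775 to 900 bp). The median width was lower for single-list flanked peaks in each of the 5 classes under 300 in both lists, though some of the intervals overlapped or met. The median percentile of the lower-ranked region was lower too, except from 150 to 300 in replicate 1, at 66.8 against 66.2. In replicate 2 from 80 to 100 it was close, at 57.6 against 58.6.

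**Figure D4:**
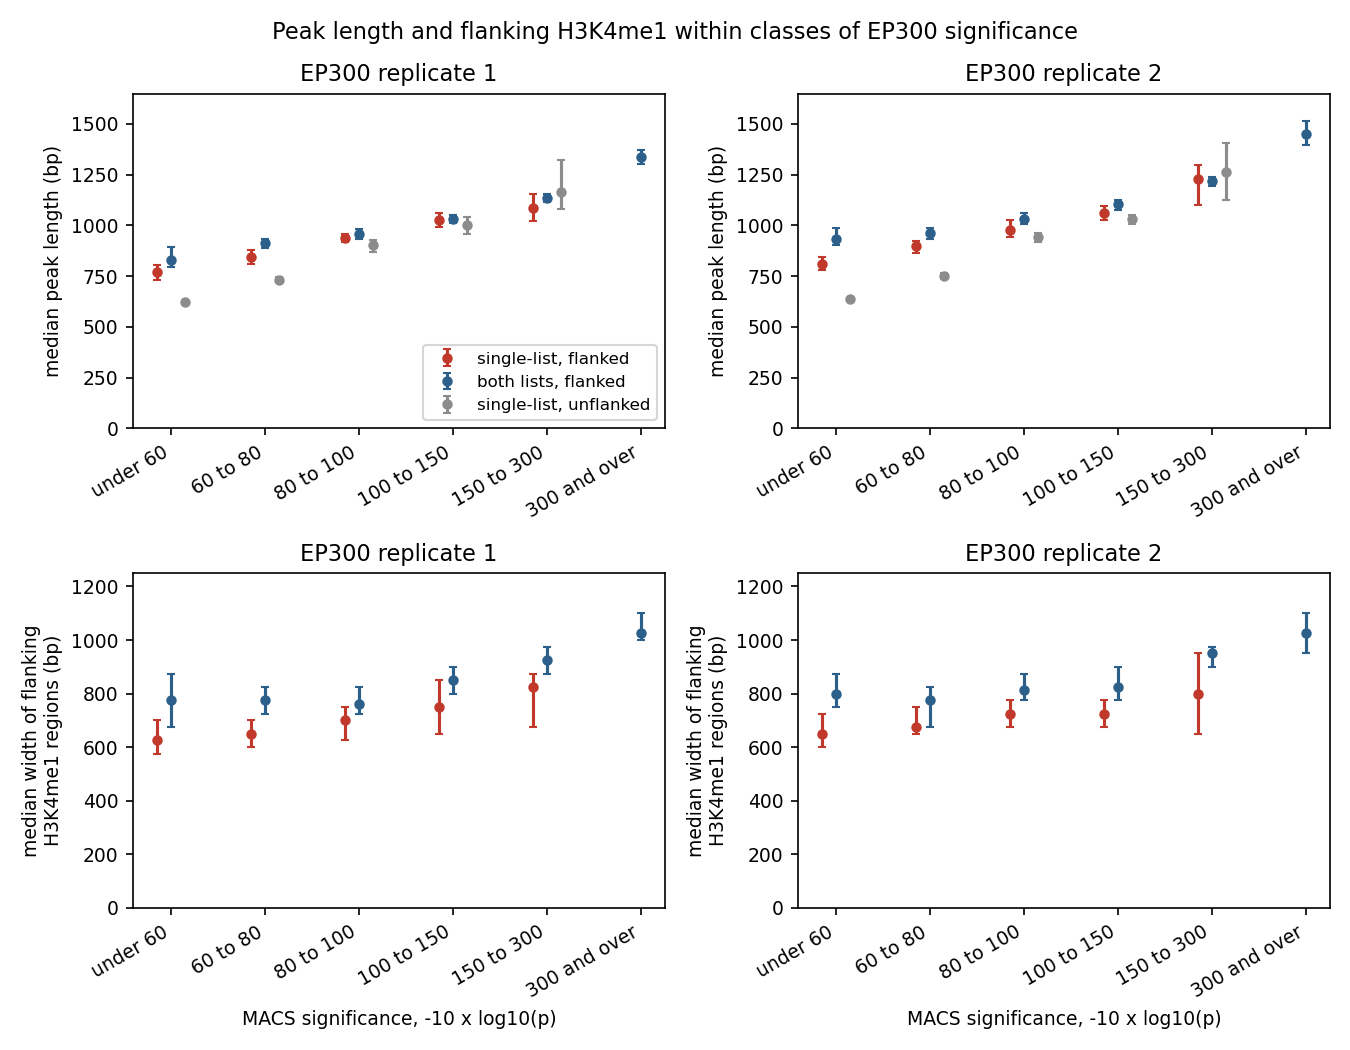
Median peak length (upper panels, bp) and median of the mean width of the 2 flanking H3K4me1 regions (lower panels, bp) in classes of MACS significance (x axis), with exact order-statistic 95% intervals as bars. Classes with fewer than 20 peaks are left out; below a significance of 60 the flanking regions measure 625 and 650 bp beside single-list flanked peaks and 775 and 800 bp beside flanked peaks in both lists.

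Single-list flanked peaks had more H3K4me1 regions within 10 kb than unflanked single-list peaks, which the rule partly fixes. A median of 4 regions was found within 10 kb of the midpoint in each list, the same as for flanked peaks in both lists, against 0 and 1 for unflanked single-list peaks. By the rule a flanked peak has at least 2. At least 5 regions were found within 10 kb of 39.8% (interval 36.6% to 43.0%) and 39.6% (interval 36.6% to 42.5%) of the single-list flanked peaks, against 47.0% and 46.5% of flanked peaks in both lists and 10.6% and 11.3% of unflanked single-list peaks. No region besides the 2 flanks lay within 10 kb of 24.6% and 26.2% of the single-list flanked peaks. For flanked peaks in both lists this was so in 17.9% and 17.8% of cases.

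Shared peaks, meaning peaks of the same list that overlapped a peak of the other list, were nearer to single-list flanked peaks than to unflanked single-list peaks. The median distance between peak edges was 77229 bp in replicate 1 (interval 65949 to 89026 bp), against 249845.5 bp (interval 228598 to 262089 bp) for unflanked single-list peaks. In replicate 2 it was 82839.5 bp (interval 67989 to 94427 bp), against 201797 bp (interval 190078 to 212836 bp). From a flanked shared peak, the next shared peak lay a median of 52657 bp and 53162 bp away. A shared peak lay within 10 kb of 18.6% and 17.1% of the single-list flanked peaks, against 22.9% and 22.7% of flanked peaks in both lists and 7.58% and 9.20% of unflanked single-list peaks. It lay within 1 kb of 2.42% and 2.20% of them, against 4.33% and 4.66%, and 1.30% and 1.68%, in the same order of classes. One peak of replicate 1 had no shared peak on its sequence, and 909 distances were used.

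The difference in distance from unflanked single-list peaks was smaller among stronger peaks. Under a significance of 60, the medians were 96107 bp (interval 75437 to 131807 bp) and 81701.5 bp (interval 60476 to 106462 bp) for single-list flanked peaks, against 286108 bp (interval 264747 to 307740 bp) and 253147 bp (interval 233668 to 270486 bp) for unflanked ones. From 100 to 150 they were 67829 bp (interval 44242 to 96816 bp) against 116659 bp (interval 72465 to 158575 bp) in replicate 1, and 78955 bp (interval 59513 to 111362 bp) against 88068 bp (interval 61868 to 111782 bp) in replicate 2, with overlapping intervals. Between these classes the intervals of single-list flanked peaks overlapped in each list, while those of unflanked peaks were apart. The unflanked class also held a smaller share of peaks without H3K4me1 within 1000 bp from 100 to 150, as given for length. The cause was not tested. With a significance of at least 100, the ratio of medians over both lists was 0.801 (interval 0.522 to 1.20), compared with 0.360 (interval 0.306 to 0.420) for all peaks.

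**Figure D5:**
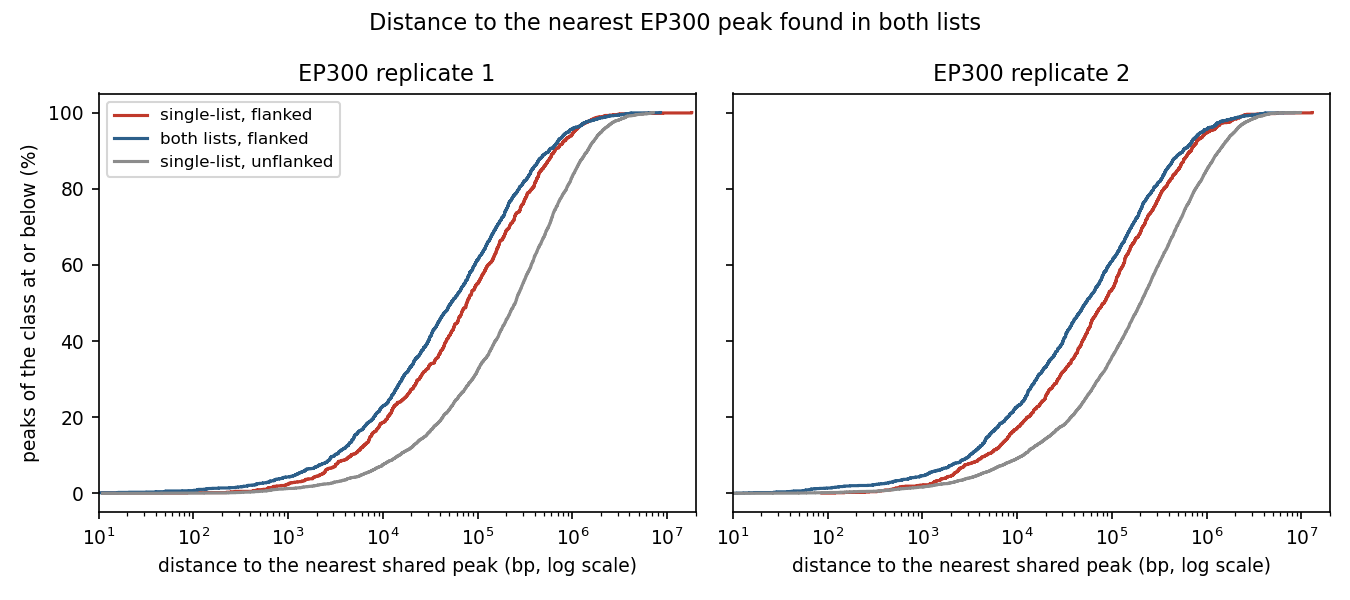
Cumulative share of peaks (y axis, percent) by the distance between edges to the nearest other EP300 peak of the same list found in both lists (x axis, bp, log scale), for the 3 classes and each replicate. Median distances are 77229 and 82839.5 bp for single-list flanked peaks and 249845.5 and 201797 bp for unflanked single-list peaks.

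Almost no peak of the other list reached into the gaps of single-list flanked peaks. No gap held the midpoint of another peak of either list, and no gap held a single-list flanked peak of both replicates. A peak of the other list reached into the gap in 0 of 910 cases in replicate 1 (upper bound 0.405%) and in 1 of 1092 in replicate 2 (0.0916%), against 99.8% and 99.6% of the gaps of flanked peaks in both lists. Peaks that are longer than the gap leave little room for a second peak that does not overlap the first. Flanked peaks in both lists overlap a peak of the other list by definition. The low and the high shares therefore largely restate the rule. Outside the gap, the nearest peak of the other list lay a median of 28221.5 bp away in replicate 1 and 33277 bp in replicate 2, against 62937 bp and 74458 bp for unflanked single-list peaks.

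Near misses were few, but their share was higher than among unflanked single-list peaks. A peak of the other list ended within 500 bp of 27 of the 910 peaks of replicate 1 and 25 of the 1092 of replicate 2. Within 1000 bp there were 49 and 50. The shares within 500 bp were 2.97% and 2.29%, against 1.46% and 1.34% of unflanked single-list peaks. Within 1000 bp they were 5.38% and 4.58%, against 2.73% and 2.51%. In 9 of the cases within 500 bp, the neighbour was itself a single-list flanked peak, in a gap of its own. These were the same 9 pairs seen from each list. The closest such pair, chosen after its values were seen, lay on chromosome X. The replicate 1 peak at 57995784 to 57996928 had 60 tags, 6.38-fold enrichment and a gap of 600 bp, and the replicate 2 peak at 57996938 to 57997953 had 48 tags, 5.31-fold enrichment and a gap of 500 bp. They were 9 bp apart, their summits 876 bp, and they shared the H3K4me1 region between them, so that each list marked a different gap of one stretch. The closest neighbour of another kind was on chromosome 7, where the replicate 1 peak at 126132574 to 126133524 (43 tags, 9.42-fold) ended 27 bp before a flanked peak that the lists shared.

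The strongest single-list flanked peaks of replicate 1 were well inside its list but differed in the quality of their flanks. The first by significance, on chromosome 3 at 57366372 to 57367519, had 97 tags, a significance of 370.04 and 13.97-fold enrichment, and ranked 406 in its list. Its gap of 950 bp lay between a region of 150 bp ranked 55733 and a region of 2350 bp ranked 647 of 59923. The second, on chromosome 4 at 95582105 to 95583287, had 90 tags, 8.51-fold enrichment and a gap of 950 bp, also with a low-ranked region (53693) on one side. The third, on chromosome 2 at 38832876 to 38833774, had 80 tags in only 899 bp and 15.04-fold enrichment, with a gap of 350 bp. The other two were both on chromosome 11. The peak at 53282611 to 53283783 had 108 tags and 8.35-fold enrichment in a gap of 1450 bp, and the peak at 45602859 to 45603986 had 100 tags and 7.43-fold enrichment in a gap of 650 bp. Both lay between regions of the upper 20% of the ranking. For the first 5, the nearest peak of replicate 2 was 14054 bp to 150204 bp away.

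In replicate 2 the strongest single-list flanked peaks carried more tags. The first, on chromosome 1 at 81855594 to 81857280, had 159 tags, a significance of 488.39 and 9.64-fold enrichment, and ranked 240 in its list, with a gap of 1000 bp between regions of 500 bp and 550 bp. The second, also on chromosome 1, at 133402126 to 133404206, was 2081 bp long with 163 tags and 8.69-fold enrichment. Its gap of 600 bp lay between regions of 2050 bp and 1200 bp, of which the one of 1200 bp ranked 1644. The third, on chromosome 18 at 70043323 to 70044480, had 114 tags and 8.90-fold enrichment, and the fourth, on chromosome 2 at 141340285 to 141341456, had 121 tags and 13.04-fold enrichment beside a region ranked 58504. The fifth, on chromosome 18 at 25023170 to 25024649, had 121 tags and 7.85-fold enrichment in a gap of 1100 bp between regions ranked 1732 and 10689. The nearest peak of replicate 1 was 7243 bp to 199009 bp away from these 5.

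Distance from shared peaks was most extreme on chromosome X. The farthest single-list flanked peaks of replicate 1 were at 45393500 to 45394029 (30 tags, 18245200 bp from a shared peak) and 112443439 to 112444415 (42 tags, 9060572 bp). In replicate 2 they were at 50514113 to 50515030 (40 tags, 13124291 bp) and at the site of the 9 bp pair. The nearest were at chromosome 2, 103480864 to 103481701 (47 tags, 11 bp from a shared peak), and chromosome 7, 126132574 to 126133524 (86 bp), in replicate 1, and at chromosome 9, 72716081 to 72717303 (69 tags, 87 bp), and chromosome 7, 106472019 to 106473193 (66 tags, 119 bp), in replicate 2.

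At the limits of the rule, the values are given for the peaks on either side. Just inside the 1000 bp limit of replicate 1 were peaks at chromosome 5, 118897354 to 118898146 (40 tags), and chromosome 8, 94656936 to 94658064 (42 tags), each with the farther region at 1000 bp. Just outside were chromosome 5, 17139577 to 17140419 (40 tags), and chromosome 10, 77069132 to 77069764 (27 tags), each at 1002 bp. In replicate 2 the peaks just inside were at chromosome 7, 135888671 to 135889228 (25 tags, 1000 bp), and chromosome 15, 10911599 to 10912396 (34 tags, 998 bp). Just outside were chromosome 6, 124755224 to 124756153 (61 tags, 1012 bp), and chromosome 5, 77809649 to 77810783 (54 tags, 1017 bp). For the overlap of lists, the flanked peaks that only just counted as shared overlapped the other list by 97 bp and 111 bp in replicate 1 and by 78 bp and 99 bp in replicate 2.

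Seen from the H3K4me1 side, the single-list EP300 peaks of both lists together filled almost as many gaps as shared ones. This rests on the way of counting. A gap with a shared peak was counted once over the 2 lists, whereas single-list gaps add up over them. Within each list, flanked peaks in both lists numbered 2149 and 2102, against 910 and 1092 single-list flanked peaks. Of 24391 gaps under 2000 bp between neighbouring regions, 2355 (9.66%) held a flanked shared peak and 2002 (8.21%) a single-list flanked peak. The single-list ones were 910 gaps (3.73%) for replicate 1 and 1092 gaps (4.48%) for replicate 2. The other 20034 gaps (82.1%) held no flanked EP300 peak. The lower-ranked region beside the gap had a median percentile of 53.1 where a single-list peak lay in it, against 64.8 with a shared peak and 31.7 with none. Occupation by single-list peaks of either list was highest for gaps from 600 to under 1000 bp, at 13.0% (interval 12.1% to 13.9%). It reached 10.6% from 300 to under 600 bp, 3.19% under 300 bp and 4.50% from 1000 bp. The rule shapes these shares, because in gaps wider than 1000 bp only midpoints near the middle qualify. Narrow gaps leave less room for a midpoint, so no preference for a width is read from these shares. From 300 to under 600 bp, single-list peaks held 393 gaps in replicate 1 and 500 in replicate 2 (893 together). A shared peak, counted once over both lists, was in 851. From 600 to under 1000 bp they held 347 and 351 (698 together), against 950.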

How the data were processed

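EP300 and H3K4me1 ChIP-seq of melan-a cells was analysed from 3 deposited lists, with coordinates in mm9 per the submitters' processing notes. Per the file headers, EP300 peaks were called with MACS 1.4.1 20110627 for each replicate against its own control (p-value threshold 1e-05, fragment size 200 bp, at most 2 duplicate tags per position). Per the file headers, each peak has a deposited tag count, a significance score (10 times the -log10 p), a fold enrichment ratio and a false discovery rate in percent, at most 2.14 and 0.56 percent. The deposited H3K4me1 table ranks regions by a score and gives a maximum log2 fold change, a -log10 p-value and a false discovery rate as a fraction; of these only rank and coordinates were used. Not given in the sources used here are the H3K4me1 caller, its pooling of replicates and the aligner. Peak values were compared between classes of one list.

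Peaks were classified with Python 3.11.15, pandas 2.3.3 and numpy 2.4.6, with functions tested on simulated peaks. Medians carry exact order-statistic intervals, shares Clopper-Pearson intervals (scipy 1.17.1), and ratios of medians the widest ratio that both intervals allow. Peaks are not replicates and the rule used these calls, so no test was run. Members, classes and lists of alternatives were chosen with earlier results of these data known. Regions were named by rule: in each list the 5 of highest significance, the 2 nearest to and farthest from a shared peak, the narrowest and widest gap, and the 2 on each side of the 1000 bp limit; the rule's pairs in 1 gap gave 0 cases. No mm9 genome or annotation was used, so genes, motifs and sequences are not analysed here.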

Additional observations from a re-analysis of the deposited data

How the results depend on the processing

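Over both lists together, 126 of 158 values under an alternative lay within the interval of the value reported (for counts, within 1.5 times it), 32 moved and 0 reversed. The 126 include values that could not move. These are all values under a false discovery rate limit of 5 percent. Also fixed were the shares found in the other list in classes from 100 upward, when a significance of at least 100 was required. The 2002 peaks became 1100 with the upper 50% of H3K4me1 regions and 517 with a significance of at least 100. The flanked share of single-list peaks, 17.3%, was 12.4% with regions within 500 bp, 19.8% within 2000 bp, 9.50% with the upper 50% of regions, 43.0% at a significance of at least 100, and 18.5% without chromosome 6, an alternative chosen after seeing the data. It was 16.2% without replicate 1 and 18.8% without replicate 2. Relative to flanked peaks in both lists, the tag ratio was 0.682 within 500 bp and 0.729 at a significance of at least 100, the length ratio 0.861 and 0.907. The gap ratio of 0.846 was 0.909 within 500 bp, 0.857 within 2000 bp, 0.833 with the upper 50% of regions, and 0.846 to 0.923 without either replicate. Relative to unflanked single-list peaks, the length ratio was 1.29 within 500 bp. At a significance of at least 100 the tag, length and distance ratios were 1.07, 1.02 and 0.801, close to 1 for the first 2, and here the weak peaks are left out by construction. With only peaks that lack H3K4me1 within 1000 bp as unflanked, they were 1.59, 1.42 and 0.243. The flanked minus unflanked share found in the other list was then 36.9, 41.9, 44.2 and 35.5 percentage points in the 4 classes under 150, in place of 32.4, 31.3, 25.4 and 18.3. Within 500 bp it was 18.5 (80 to 100) and 11.2 (100 to 150). Leaving out a replicate gave 19.0 to 29.6 points at 80 to 100 and 1.06 to 10.99 points at 150 to 300, where the difference of 6.66 rests on replicate 2. For all of these moves the cause was not tested. The limit of 5 percent on the false discovery rate removed no peak. No paired analysis was possible because the 2 lists belong to 1 sample and no test was run. Absence from a list is limited by its depth, and the depth behind H3K4me1 is unknown.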

Other observations

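Chromosome X stood out among flanked EP300 peaks, a pattern picked after its values were seen and not tested. Of its flanked peaks, 12 of 24 in replicate 1 (50%, interval 29.1% to 70.9%) and 16 of 26 in replicate 2 (61.5%, interval 40.6% to 79.8%) were single-list, against 29.7% and 34.2% over all chromosomes. On the autosomes the share ran between 23.0% (chromosome 1) and 34.3% (chromosome 7) in replicate 1 and between 28.9% (chromosome 16) and 41.5% (chromosome 11) in replicate 2. Counts on X are small and the intervals wide.

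Chromosome 6 took 6.15% (interval 4.68% to 7.92%) and 4.95% (interval 3.74% to 6.40%) of the single-list flanked peaks, close to its 5.02% of H3K4me1 regions and to its 5.68% and 5.61% of flanked peaks in both lists. Of the unflanked single-list peaks it held 13.4% (interval 12.4% to 14.5%) in replicate 1 and 12.3% (interval 11.5% to 13.2%) in replicate 2. The excess of single-list peaks on this chromosome was thus seen among peaks without H3K4me1 on both sides, and its cause was not tested.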
